A study of Mus musculus with 11 samples.

Results

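The 10 genes described here encode glycolysis isozymes that are grouped by name as those of proliferating cells: the glucose transporter Slc2a1, the hexokinases Hk1, Hk2 and Hk3, the platelet-type phosphofructokinase Pfkp, the aldolases Aldoa and Aldoc, the phosphoglycerate kinase Pgk1, the enolase Eno1 and the lactate dehydrogenase Ldha. They were chosen by name, by a rule that uses no measured value, but with earlier results of these data known. The name does not suit every member: Hk3 is known mainly from myeloid cells and Aldoc from brain, and Ldha took 97.7 to 99.5% of the lactate dehydrogenase eRPKM (a length-scaled level) in every liver, controls included. The genes are therefore called by their symbols. All 10 were found among the 20893 genes of the table, and all 10 were among the 14244 genes tested. Bulk RNA-seq covered 11 livers of C57BL/6 mice, 1 library per liver. The 4 control livers came from mice labelled ROSA26-rtTA-IRES-EGFP WT that had eaten doxycycline food for 7 days. YAP was induced in mice of genotype ROSA26-rtTA-IRES-EGFP tetYAP by the same food, for 3 days in 4 livers and for 7 days in 3. All mice thus carried the rtTA allele and all received doxycycline. In the induced mice the rtTA was released by an albumin-driven Cre, which acts in hepatocytes, and the transgene encoded the constitutively active YAP S127A. Whether the controls carried that Cre, and the age of the mice, are not given in the sources used here.

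Glycolysis turns glucose into pyruvate and lactate, and most of its steps are served by several isozymes from separate genes. Resting hepatocytes take up and release glucose and run the pathway in both directions, with the transporter Slc2a2 and the liver pyruvate kinase Pklr among their characteristic forms. Dividing cells, and many non-hepatocyte cells of the liver, rely instead on high-affinity hexokinases, Pfkp, aldolase A and the M-type pyruvate kinase Pkm, and they release lactate.

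Reads on genes numbered 1251749 to 5497411 in the control libraries, 2661225 to 3682440 in those of 3 days and 5313872 to 5943458 in those of 7 days. All libraries of 7 days were thus deeper than all others but control liver 2. By Xist and the Y-linked gene Ddx3y, 2 of 4 controls, 2 of 4 livers at 3 days and all 3 livers at 7 days were female. Mouse Yap1 itself had 13.9 to 21.1 eRPKM in controls, 15.3 to 19.3 after 3 days and 17.4 to 19.0 after 7 and was not called, and whether reads of the transgene count towards it is not given in the sources used here. Cyr61, a known YAP target, had 5.76 to 14.3 eRPKM in controls, 26.8 to 53.4 after 3 days and 90.5 to 91.3 after 7. The hepatocyte marker Alb ranged from 234 to 918 eRPKM over the 11 livers. Levels are given in eRPKM, the exon reads of a gene scaled to its length and to the reads of the library. They can be compared between genes, but in whole livers fewer cells of a type and less RNA per cell cannot be told apart.

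At 7 days the 3 high-affinity hexokinases and Pfkp rose. Mean levels were 9.55 times those of controls for Hk2, 4.70 times for Hk3, 3.42 times for Hk1 and 2.44 times for Pfkp. Slc2a1, Aldoa and Eno1 had higher means and Aldoc, Pgk1 and Ldha lower means than in controls, and none of these 6 passed the test. A gene was called where limma, fitted to all genes, gave an adjusted p below 0.01 and a log2 fold change of more than 0.5 in either direction. By this rule 4 of the 10 genes rose and 0 fell at 7 days against control. Of all 14244 tested genes, 18.0% rose and 5.77% fell in that comparison. Between 3 and 7 days 5 of the 10 rose and 0 fell, against 14.0% and 5.31% of all tested genes. At 3 days against control 0 of the 10 were called by limma (0.0421% of all genes), 0 had an unadjusted p under 0.05 (12.1%), and 0 had livers of the induced group all above (3.38%) or all below (2.25%) the controls. An unadjusted p under 0.05 was reached by 6 of the 10 genes at 7 days against control (47.3% of all genes) and by 7 against 3 days (46.2%). The median log2 fold change of the 10 genes at 7 days was 0.70, and that of all tested genes was 0.26. That shift of all genes was 0.03 with median-ratio size factors and -0.08 after quantile normalization, and the share of calls that were rises went from 75.7% to 60.9% and 50.5%. Some fold changes are therefore also given relative to the median gene. Both comparisons with control used the same 4 control livers. Every liver at 7 days lay above every control for 7 of the 10 genes (36.7% of all genes) and below every control for 1, Aldoc (13.3%). Against the 3-day livers the counts were 6 higher (31.3%) and 1 lower, Pgk1 (13.8%). Without the 2 shallowest controls, an alternative added with the results in view, 3 of the 4 calls against control and 4 of the 5 against 3 days were made.

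**Figure D1:**
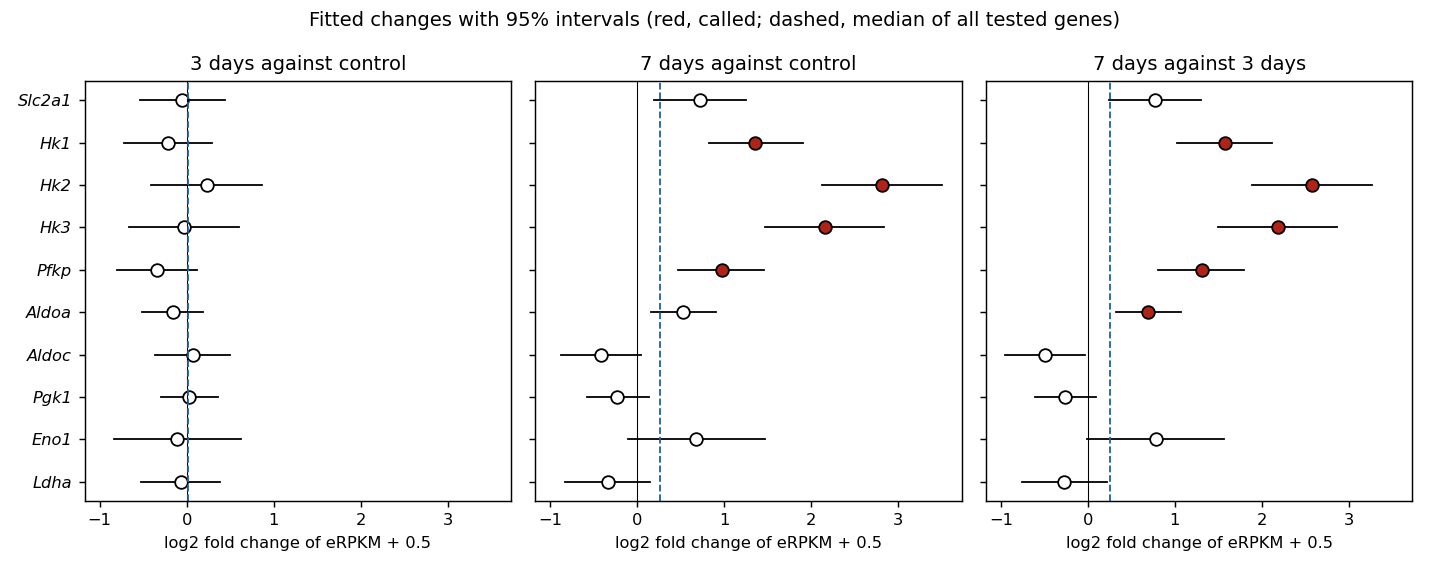
Fitted log2 fold changes of eRPKM + 0.5 for the 10 genes in the 3 comparisons, with 95% intervals; red points passed the threshold and the dashed line is the median of all 14244 tested genes. Hk2 (2.82), Hk3 (2.16), Hk1 (1.36) and Pfkp (0.97) stood above the median of 0.26 at 7 days against control, and all intervals at 3 days covered 0.

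YAP binds DNA through TEAD factors, and hypoxia-inducible factors are classical activators of several glycolysis genes. The 250 bases before each start were searched on both strands for the TEAD motif GGAATG and the hypoxia response core ACGTG. The core overlaps the E-box CACGTG, which contains it on either strand. RefSeq gave 17 such windows for the 10 genes (GRCm38.p6, a later build than the mm9 of the values). A TEAD motif was present in a window of 3 genes, Aldoa, Aldoc and Eno1, and the hypoxia core in a window of 6, Hk2, Hk3, Aldoa, Ldha, Pgk1 and Slc2a1. Of all 27025 genes with a window, 14.4% had the TEAD motif and 18.5% the hypoxia core. These shares are not like for like, since those 27025 genes had 32851 windows and the 10 genes had 17. G and C made up 47.2 to 71.2% of the bases in windows of the 10 genes, with a median of 52.4% over all windows. The part of window number and base content in the counts was not tested. Of the 6 windows printed here, some are of the 2 largest risers, Hk2 and Hk3, and of Pfkp, which rose and has neither motif. The others are the Aldoa window that holds both, and windows of Ldha and Pgk1, which did not rise. All 6 are written 5′ to 3′ on the strand of the gene. In them ACGTG or its complement CACGT, and GGAATG or its complement CATTCC, are in capitals.
Hk2 promoter, chr6:82774455-82774704, minus strand: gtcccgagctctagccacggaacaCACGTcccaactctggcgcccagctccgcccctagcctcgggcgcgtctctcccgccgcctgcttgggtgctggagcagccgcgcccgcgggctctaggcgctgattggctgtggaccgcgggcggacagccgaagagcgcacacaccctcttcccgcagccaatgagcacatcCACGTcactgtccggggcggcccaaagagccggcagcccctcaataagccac
Hk3 promoter, chr13:55021386-55021635, minus strand: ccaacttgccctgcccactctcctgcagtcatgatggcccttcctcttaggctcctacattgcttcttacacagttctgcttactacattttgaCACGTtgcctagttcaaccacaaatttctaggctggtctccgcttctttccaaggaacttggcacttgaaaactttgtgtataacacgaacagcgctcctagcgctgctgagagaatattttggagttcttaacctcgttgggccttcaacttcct
Pfkp promoter, chr13:6648772-6649021, minus strand: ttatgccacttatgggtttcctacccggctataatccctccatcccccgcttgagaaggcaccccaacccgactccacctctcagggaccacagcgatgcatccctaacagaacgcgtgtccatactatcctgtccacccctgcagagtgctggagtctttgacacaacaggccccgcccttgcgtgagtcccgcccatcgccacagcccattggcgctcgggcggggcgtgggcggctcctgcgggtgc
Aldoa promoter, chr7:126799255-126799504, minus strand: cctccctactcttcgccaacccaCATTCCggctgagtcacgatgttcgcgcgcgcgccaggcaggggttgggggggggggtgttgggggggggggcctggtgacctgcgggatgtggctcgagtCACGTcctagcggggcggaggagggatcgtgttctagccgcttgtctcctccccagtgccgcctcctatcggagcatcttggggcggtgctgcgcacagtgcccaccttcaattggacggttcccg
Ldha promoter, chr7:46845554-46845803, plus strand: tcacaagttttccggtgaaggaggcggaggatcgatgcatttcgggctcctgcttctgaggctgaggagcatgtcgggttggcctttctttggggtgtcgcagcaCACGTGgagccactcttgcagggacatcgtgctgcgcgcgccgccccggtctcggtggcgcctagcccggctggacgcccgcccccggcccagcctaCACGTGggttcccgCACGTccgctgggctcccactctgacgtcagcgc
Pgk1 promoter, chrX:106186850-106187099, plus strand: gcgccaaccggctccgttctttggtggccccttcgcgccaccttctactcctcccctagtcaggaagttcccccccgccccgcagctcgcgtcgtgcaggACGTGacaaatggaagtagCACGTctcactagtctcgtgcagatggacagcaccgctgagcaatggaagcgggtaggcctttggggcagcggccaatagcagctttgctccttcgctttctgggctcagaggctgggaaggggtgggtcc
The printed Ldha window held 5 matches to the core, counted on both strands, of which 2 E-boxes gave 2 each. Those of Hk2 and Pgk1 each held 2, and those of Hk3 and Aldoa 1. Among the windows not printed, the 2 of Hk1, which rose, and another of Ldha held neither motif. Another Aldoa window held only the core, and another neither motif. Genes that rose and genes that did not thus both had windows with the core, and a match describes letters, not binding.

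In control livers the 10 genes had mean levels from 0.924 to 165 eRPKM. Ldha and Pgk1 were highest, with means of 165 ± 57.7 and 157 ± 29.9 eRPKM (SD, n = 4), and did not differ beyond their spread. Aldoa followed with 65.7 ± 2.26 and Aldoc with 18.6 ± 2.03. Slc2a1 (9.32 ± 1.85), Eno1 (5.85 ± 1.98) and Hk3 (5.01 ± 1.84) overlapped in that order. Hk2 (1.06 ± 0.564), Pfkp (0.986 ± 0.143) and Hk1 (0.924 ± 0.181) were lowest and overlapped as well. At 7 days the mean of Hk3 had moved from the seventh to the fourth place, but its livers overlapped those of Slc2a1, the next in order, at the edge (17.9 for the lowest Hk3 value and 18.5 for the highest Slc2a1 value). Hk2 had moved from the eighth to the seventh place by its mean, above Eno1, whose livers it overlapped.

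**Figure D2:**
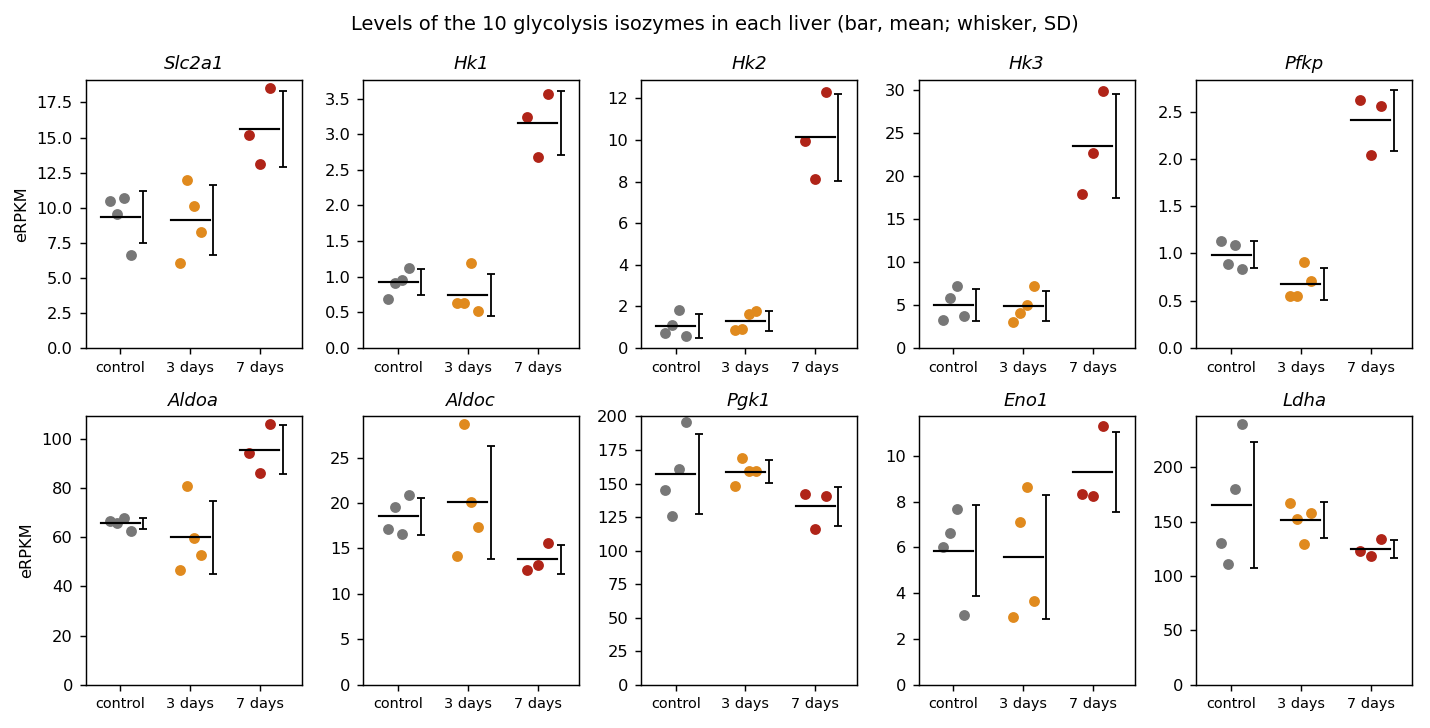
Levels in eRPKM of the 10 genes in each of the 11 livers, ordered along the pathway; points are livers, bars are group means and whiskers are SD, and each panel has its own axis from 0. The 3 livers at 7 days stand clear of all others for Hk1, Hk2, Hk3 and Pfkp, and lie within or below the range of controls for Pgk1, Ldha and Aldoc.

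Slc2a1 (mm9, chromosome 4, 118781316 to 118809935, plus strand) encodes the transporter that carries glucose into most dividing cells. It had 10.5, 9.53, 10.7 and 6.64 eRPKM in controls 1 to 4, 6.09, 12, 10.1 and 8.30 at 3 days and 15.2, 13.1 and 18.5 at 7 days. All 3 livers at 7 days were above all others, and controls and 3-day livers overlapped. The log2 fold change at 7 days against control was 0.72 (SE 0.24, 95% interval 0.19 to 1.25), short of the threshold (limma adjusted p = 0.0337), and it was 0.46 above the median gene. Between 3 and 7 days the change was 0.77 (limma adjusted p = 0.0277).

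Of the other glucose transporters, Slc2a2, the main transporter of hepatocytes, took 92.1 ± 2.92% of the summed eRPKM of the 5 measured genes in controls and 84.2 ± 2.01% at 7 days. Slc2a1 took 6.47, 5.99, 5.28 and 2.87% in controls 1 to 4 and 7.62, 7.84 and 8.81% at 7 days. The groups did not overlap, and the lowest share was in control 4, the shallowest library. Reads on Slc2a2 differed by 3.31 times between libraries and those on Slc2a1 by 11.9 times, and the part of depth in the shares was not tested. Slc2a3, a high-affinity neuronal and leukocyte transporter, rose from a mean of 0.923 to 2.53 eRPKM (log2 fold change 1.09, limma adjusted p = 0.00169). That call was lost after quantile normalization, in female livers alone and without the 2 shallowest controls. Slc2a4, the insulin-responsive transporter of muscle and fat, rose from 0.590 to 11.6 eRPKM (log2 fold change 3.6, limma adjusted p = 0.000924). It had 1.05, 1.31, 0 and 0 eRPKM in controls 1 to 4, 13.6, 5.64 and 15.4 at 7 days and 5.88 in 3-day liver 3. Controls 3 and 4 are the 2 shallowest, and the call was lost without them and with depth as a covariate. The summed level of 9 skeletal muscle markers was 8.57 to 29.8 eRPKM in controls, 7.76 to 10.6 after 3 days and 6.95 to 11.3 after 7. Acta1 was the highest of them in each liver, with 4.60 to 29.2 eRPKM and its highest value in control 4, and 0 of the 2 markers that could be tested were called. Ckm was at most 0.346 eRPKM. Their part in the change of Slc2a4 was not tested.

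Hk2 (mm9, chromosome 6, 82675019 to 82724448, minus strand) encodes the hexokinase most often induced in growing and tumour cells. In controls it had 0.723, 1.12, 1.83 and 0.563 eRPKM, from 16, 35, 25 and 4 reads. It had 0.859, 0.922, 1.63 and 1.77 eRPKM at 3 days, and 9.96, 8.11 and 12.3 at 7 days, where 303, 274 and 370 reads were counted. The lowest liver at 7 days was thus above the highest of the other 8, and the mean was 9.55 times that of controls. Its promoter window, with 2 hypoxia cores, is among those printed. The log2 fold change was 2.82 (SE 0.32, limma adjusted p = 3.6e-05) against control and 2.58 (SE 0.32, limma adjusted p = 8.36e-05) against 3 days. Hk2 was called at 7 days in all 25 alternative fits, with log2 fold changes of 2.33 to 3.28 against control.

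Hk3 (mm9, chromosome 13, 55107346 to 55122746, minus strand) encodes a hexokinase found mainly in myeloid cells. It had 3.24, 5.82, 7.20 and 3.76 eRPKM in controls, 3.09, 4.13, 5.03 and 7.26 at 3 days and 17.9, 22.7 and 29.9 at 7 days. Controls and 3-day livers covered the same range, and all 3 livers at 7 days lay above it. Fitted log2 fold changes were 2.16 (SE 0.32, limma adjusted p = 0.00021) against control and 2.19 (limma adjusted p = 0.000249) against 3 days. It too was called in all 25 alternative fits, with 1.75 to 2.34 against control.

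Hk1 (mm9, chromosome 10, 61731603 to 61842656, minus strand) encodes the hexokinase of brain, red cells and most other tissues. It was read thinly, with 11 to 39 reads per control library, and had 0.693, 0.912, 0.962 and 1.13 eRPKM in controls, 0.627, 0.638, 1.19 and 0.524 at 3 days and 3.24, 2.68 and 3.56 at 7 days. Again all livers at 7 days were above the other 8. This was a log2 fold change of 1.36 (SE 0.25, limma adjusted p = 0.00111) against control and 1.58 (limma adjusted p = 0.000523) against 3 days. After quantile normalization the change against control was 0.77 and was no longer called (limma adjusted p = 0.0314). In female livers alone (2 controls, 2 at 3 days and 3 at 7 days) it was 1.34, also not called (limma adjusted p = 0.0143), and both settings also ended the call against 3 days.

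Most macrophage markers and all cycling cell markers also rose at 7 days, and no measured marker was at 0 in all livers. Against control, 18.0% of all tested genes rose at 7 days and 5.77% fell. Of 12 measured macrophage markers 10 rose and 0 fell. Their summed level was 311 to 622 eRPKM in controls, 415 to 806 after 3 days and 1250 to 1390 after 7. Itgam (log2 fold change 3.26), Marco (3.47), Cd68 (2.61) and Csf1r (1.81) were among them. All 8 cycling cell markers rose at 7 days, with sums of 9.11 to 24.1 eRPKM in controls, 20.2 to 133 after 3 days and 128 to 207 after 7. At 3 days Mki67, a marker of dividing cells, was highest in liver 3 with 37.2 eRPKM. In that liver Hk1 was 1.19, its highest value in the controls and 3-day livers, and Hk2 was 1.63, against 1.77 in 3-day liver 4. At 3 days 0 of the 8 cycling markers were called. Their median log2 fold change was 1.97, and Hk1, Hk2 and Hk3, also not called, had -0.21, 0.23 and -0.03. Whether the hexokinases followed these markers at 3 days was not tested. The summed level of 10 hepatocyte markers, of which 4 fell and 0 rose at 7 days, was 1950 to 5480 eRPKM in controls, 2330 to 2860 after 3 days and 1430 to 1610 after 7. Reads on these 10 genes followed depth only in part, differing between libraries by 1.28 times for Alb, 1.38 for Apob and 1.39 for Apoa1 and by at most 3.28 times, against 4.75 times for all reads on genes. The part of depth in the hepatocyte sum and of these marker groups in the hexokinase changes was not tested.

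Pfkp (mm9, chromosome 13, 6579014 to 6648023, minus strand) encodes a subunit of phosphofructokinase, which commits sugar to glycolysis. It had 1.13, 0.893, 1.09 and 0.836 eRPKM in controls, 0.549, 0.548, 0.909 and 0.710 at 3 days and 2.62, 2.04 and 2.56 at 7 days. The livers at 7 days were above all others, and the 3-day livers were mostly below the controls. The log2 fold change was 0.97 (SE 0.23, limma adjusted p = 0.0054) against control and 1.31 (limma adjusted p = 0.000988) against 3 days. The call against control was the least stable of the 4. It was made in 11 of 25 alternative fits, and leaving out control liver 1, 2 or 3 or 7-day liver 1 or 3 ended it. Without the 2 shallowest controls it was 0.94 (limma adjusted p = 0.0247), and after quantile normalization it was 0.40 (limma adjusted p = 0.151). The call against 3 days was made in 23 of 25, and was lost with quantile normalization (0.67) and in female livers alone (1.15).

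Among its partners, the liver-type subunit Pfkl rose from 10.4 ± 1.89 to 22.2 eRPKM (log2 fold change 1.06, limma adjusted p = 0.00488). That call was made in 15 of 25 alternative fits, and leaving out control 3 or 4, the 2 shallowest controls or any 1 of the livers at 7 days ended it, as did size factors, the replicate block, depth as a covariate and female livers alone. The muscle-type Pfkm stood at 8.03 ± 0.578 and 8.06 (log2 fold change 0.00, 95% interval -0.46 to 0.47). Shares do not depend on how libraries are scaled to each other, but can move with depth where reads of one form follow it less than those of another, and they were not tested. The share of Pfkp in the family was 4.35 to 5.61% in controls, 2.59 to 4.34% after 3 days and 7.07 to 7.81% after 7. Pfkl remained the main form in all 11 livers, at 49.3 to 69.1%.

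Aldoa (mm9, chromosome 7, 133938748 to 133944265, minus strand), the aldolase of muscle and of dividing cells, had 66.5, 65.9, 67.8 and 62.5 eRPKM in controls, 46.7, 80.6, 59.7 and 52.6 at 3 days and 94.1, 86.2 and 106 at 7 days. The controls lay close together, the 3-day livers spread on both sides of them and the livers at 7 days were above all others. The log2 fold change was 0.53 (SE 0.17, 95% interval 0.16 to 0.91) against control, short of the threshold (limma adjusted p = 0.0287). Against 3 days it was 0.69 (SE 0.17, limma adjusted p = 0.00874), which passed. That call was made in only 8 of 25 alternative fits, and leaving out any of 9 livers ended it, 3-day liver 2 and control liver 4 being the exceptions.

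Aldoc (mm9, chromosome 11, 78136470 to 78141283, plus strand), the brain-type aldolase, had 17.1, 19.6, 16.6 and 20.9 eRPKM in controls, 14.2, 28.7, 20.1 and 17.4 at 3 days and 12.6, 13.2 and 15.6 at 7 days. It was the only one of the 10 with every liver at 7 days below every control. It changed by -0.42 on the log2 scale (95% interval -0.88 to 0.04), which did not pass (limma adjusted p = 0.14), and relative to the median gene it was -0.68. After quantile normalization it was -0.84 and was called (limma adjusted p = 0.00697).

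**Figure D3:**
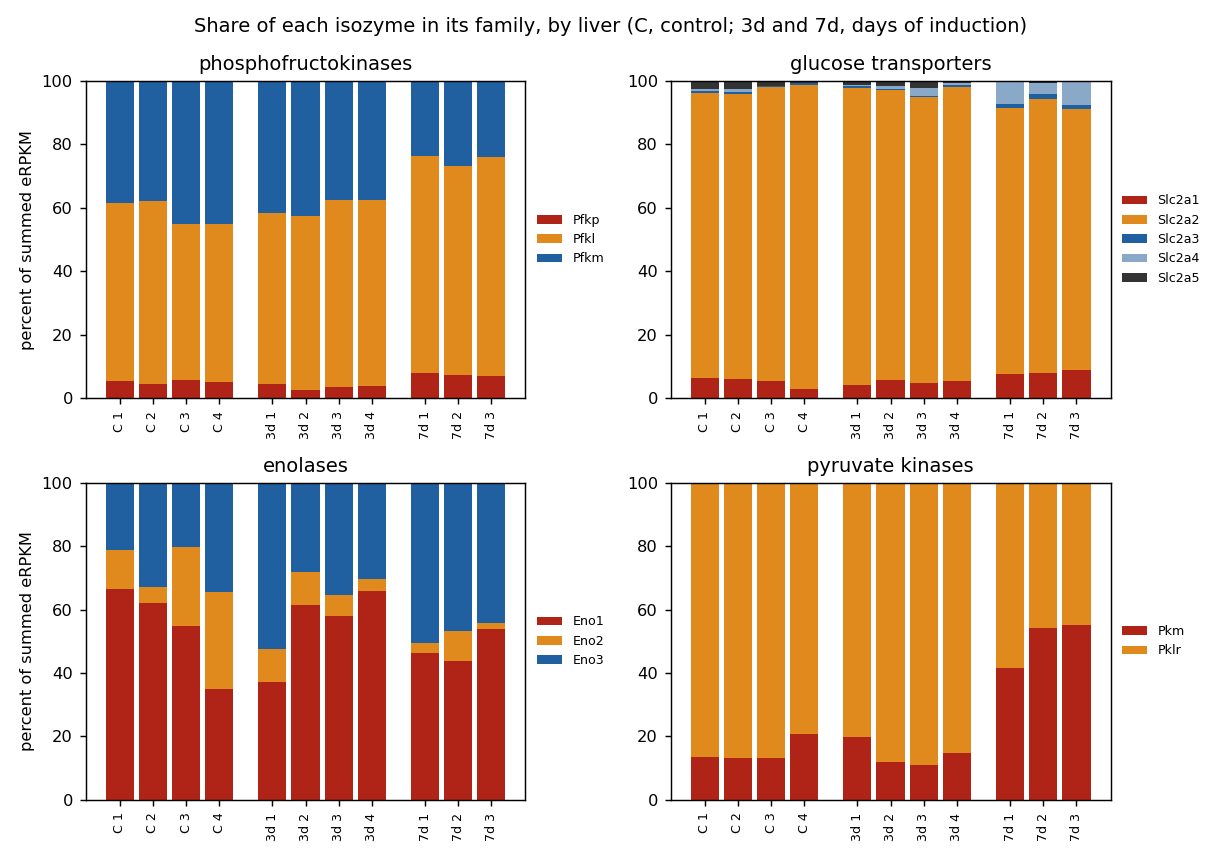
Percent of the summed eRPKM of 4 isozyme families taken by each gene, with 1 stacked bar per liver for 4 controls, 4 livers at 3 days and 3 at 7 days. Pfkp took 7.07 to 7.81% of the phosphofructokinases at 7 days, Slc2a1 7.62 to 8.81% of the glucose transporters and Pkm 41.5 to 55.1% of the pyruvate kinases.

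At pyruvate kinase, which makes the pyruvate that becomes lactate, the shares of Pkm and Pklr at 7 days did not overlap those of controls. Pkm, the form of dividing and non-hepatocyte cells, had 11.1 to 23.5 eRPKM in controls, 13.2 to 15.1 at 3 days and 48.0, 50.7 and 64.5 at 7 days (log2 fold change 1.69, SE 0.22, limma adjusted p = 8.08e-05). Pklr went from a mean of 95.2 ± 20.7 to 54.3 eRPKM, a log2 fold change of -0.80 that did not pass (limma adjusted p = 0.022), although every liver at 7 days was below every control. Pkm took 13.1 to 20.8% of the family in controls, 11 to 19.9% after 3 days and 41.5 to 55.1% after 7. The table gives no separate values for the M1 and M2 splice forms of Pkm.

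Pgk1 (mm9, chromosome X, 103382439 to 103399038, plus strand), which makes the first ATP of the pathway, had 145, 126, 161 and 196 eRPKM in controls, 148, 169, 159 and 159 at 3 days and 142, 116 and 141 at 7 days. The livers at 7 days were below all 3-day livers and within or below the range of controls. Its log2 fold change at 7 days was -0.23 (95% interval -0.58 to 0.13, limma adjusted p = 0.301), or -0.49 relative to the median gene, and it turned to 0.30 after quantile normalization. Its testis paralogue Pgk2 was at most 0.102 eRPKM.

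Ldha (mm9, chromosome 7, 54096845 to 54110997, plus strand), the M subunit of lactate dehydrogenase, had 130, 111, 180 and 240 eRPKM in controls, 167, 152, 129 and 158 at 3 days and 123, 118 and 134 at 7 days. The groups overlapped. The log2 fold change at 7 days was -0.34 (95% interval -0.83 to 0.15, limma adjusted p = 0.26), or -0.60 relative to the median gene, and it turned to 0.22 after quantile normalization. Ldha took 97.7 to 99.5% of the lactate dehydrogenase eRPKM in every liver, with Ldhb at most 2.90 eRPKM.

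Among the controls the eRPKM of Ldha and of Pgk1 ran against depth. Control liver 4, the shallowest library, had the highest value of both, and control liver 2, the deepest control, the lowest. Reads on all genes differed by 4.75 times between the deepest and the shallowest library, while reads on Ldha ran from 598 to 1420 (2.37 times) and on Pgk1 from 456 to 1416 (3.11 times). For Alb the range of reads was 1.28 times. Reads on Aldoa, from 147 to 1060, differed by 7.21 times. With log2 depth as a covariate the 7-day changes of Ldha and Pgk1 were 0.17 and 0.03. The part of depth in the levels was not tested in any other way.

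**Figure D4:**
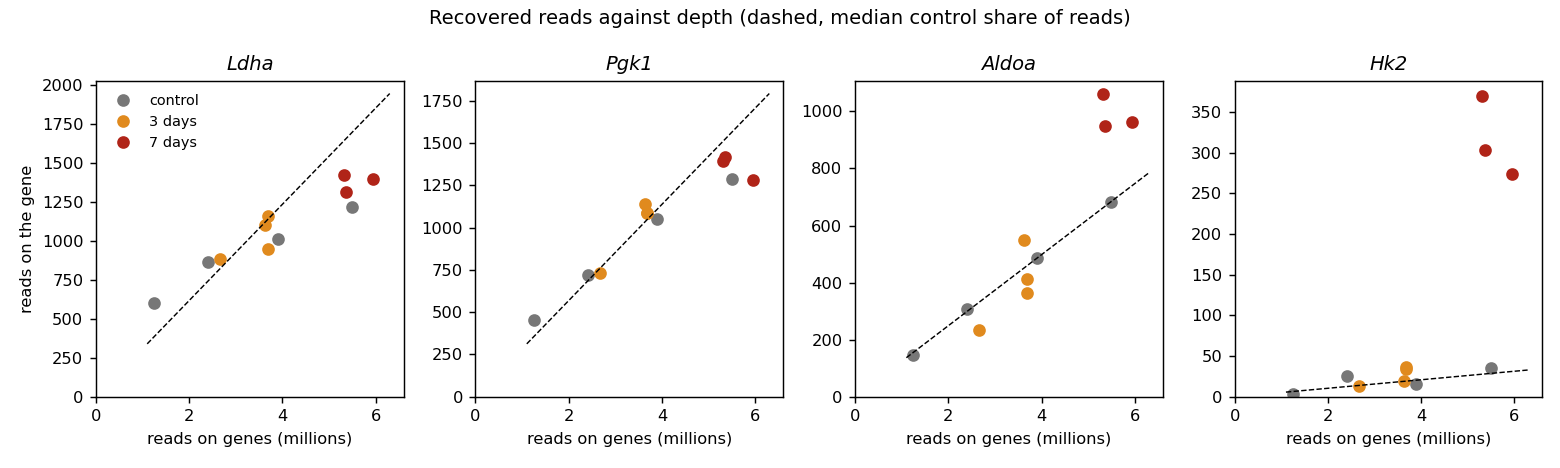
Reads on Ldha, Pgk1, Aldoa and Hk2 in each liver against reads on all genes of the library; the dashed line is the median share of reads in controls. Ldha lies above the line in the shallowest control (598 reads) and below it in the deepest libraries, while Aldoa (948 to 1060 reads) and Hk2 (274 to 370) at 7 days lie above it.

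Eno1 (mm9, chromosome 4, 149610830 to 149622988, plus strand), the enolase of most tissues, had 6.03, 6.62, 7.69 and 3.05 eRPKM in controls, 2.98, 7.12, 8.62 and 3.67 at 3 days and 8.33, 8.24 and 11.3 at 7 days. The livers at 7 days were above all controls and overlapped the 3-day livers. At 7 days it stood 0.68 higher than in controls on the log2 scale (95% interval -0.11 to 1.47, limma adjusted p = 0.163), and 0.08 after quantile normalization. The value is uncertain, because the near-identical copy Eno1b held more reads in every liver, with 17.5 to 27.2 eRPKM in controls, 20.1 to 34.1 after 3 days and 25.2 to 38.6 after 7, and reads of one can fall on the other. Eno3, the muscle enolase, rose from 2.82 to 9.06 eRPKM (log2 fold change 1.55, limma adjusted p = 0.00187), which was lost in 5 of 25 alternative fits, among them those without 7-day liver 3 or the 2 shallowest controls, and Eno2, the neuronal form, was not called, at 0.536 to 3.52 eRPKM in controls and 0.417 to 1.74 at 7 days.

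The exons of Hk1, Hk3, Slc2a1 and Pfkp overlap those of 2210417K05Rik, Unc5a, Gm12868 and Pitrm1 on the opposite strand, in the GENCODE M1 annotation. The alignment used no strand, so reads of such pairs cannot be told apart where they overlap.

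In the whole pathway, 47 further genes were tested: partner isozymes, other enzymes and regulators of glycolysis, and gluconeogenesis genes. At 7 days against control 12 rose, 4 fell and 31 were not called, and their median log2 fold change was 0.11. This share of calls, 16 of 47, stands against 23.8% of all tested genes. At 3 days 0 of the 47 were called, and between 3 and 7 days 10 rose and 3 fell, against 19.3% of all genes. Against control 6 of the 47 were called without the 2 shallowest controls, namely Pkm, Slc16a1, Slc16a3, Pfkfb4, Pgm1 and Pdp1, and 6 with log2 depth as a covariate, with all 16 genes keeping their direction in both settings. After quantile normalization 9 rose and 4 fell against control, and 4 rose and 6 fell against 3 days.

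Of 26 tested other glycolysis genes, 6 rose and 2 fell at 7 days against control, where 18.0% of all tested genes rose and 5.77% fell. The lactate exporter Slc16a3 rose from 0.350 ± 0.222 to 3.49 eRPKM (log2 fold change 2.22, limma adjusted p = 0.000114), and the monocarboxylate transporter Slc16a1 from 35.9 to 68.2 (0.94, limma adjusted p = 0.00134). Pfkfb4, a kinase that makes the activator of phosphofructokinase, rose by 1.56 on the log2 scale, and Pgm1 by 1.08. Genes of pyruvate dehydrogenase, which turns pyruvate into acetyl-CoA, and of its regulators moved in both directions. Pdk1, an inhibitory kinase of pyruvate dehydrogenase, fell from 38.5 ± 9.21 to 19.1 eRPKM (log2 fold change -0.97, limma adjusted p = 0.00232). Pdk3 (1.68) and the activating phosphatase Pdp1 (2.24) rose, and the dehydrogenase subunit Pdhb fell (-0.58). The other phosphatase, Pdp2, had means of 30.8 eRPKM in controls and 13.2 at 7 days, against 2.2 and 12.4 for Pdp1. Pdp2 was not called, although every liver at 7 days was below every control (13.3% of all genes). Of these calls those of Pgm1 (made in 14 of 25 alternative fits), Pdk3 (17), Pdk1 (21) and Pdhb (8) were lost without 7-day liver 2 or 3, and those of Pgm1 and Pdhb without liver 1 as well. Leaving out control 1, 2 or 4 also ended the call of Pgm1, and leaving out control 2, 3 or 4 or 3-day liver 1, 2 or 4 that of Pdhb. Pgam2, the muscle phosphoglycerate mutase, was called against 3 days only (1.41, limma adjusted p = 0.00215). Gapdh (-0.37), Tpi1 (-0.49), Pgam1 (-0.01) and Gpi1 (0.81) were not called.

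Of 8 gluconeogenesis genes, 1 rose and 2 fell at 7 days, against 18.0% and 5.77% of all tested genes. G6pc, the phosphatase that releases glucose from the liver, had 94.9, 152, 172 and 165 eRPKM in controls and 32.2, 30.3 and 35.4 at 7 days (log2 fold change -2.11, limma adjusted p = 0.000443). The call of G6pc was lost with depth as a covariate and without the 2 shallowest controls. Cytosolic Pck1 fell by 1.09 on the log2 scale (limma adjusted p = 0.00521), a call made in 14 of 25 alternative fits. It was lost without control 3, the 2 shallowest controls or any 1 of the livers at 7 days, with size factors, quantile normalization, depth or the label suffix MF, between the 2 groups alone and in female livers. Reads on Pck1 ran from 2025 to 4411 (2.18 times). Mitochondrial Pck2 rose by 1.71 (limma adjusted p = 0.00196), which was lost with depth as a covariate, without the 2 shallowest controls and without 7-day liver 2. Fbp1 stood at -0.79 and was not called (limma adjusted p = 0.0244).

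**Figure D5:**
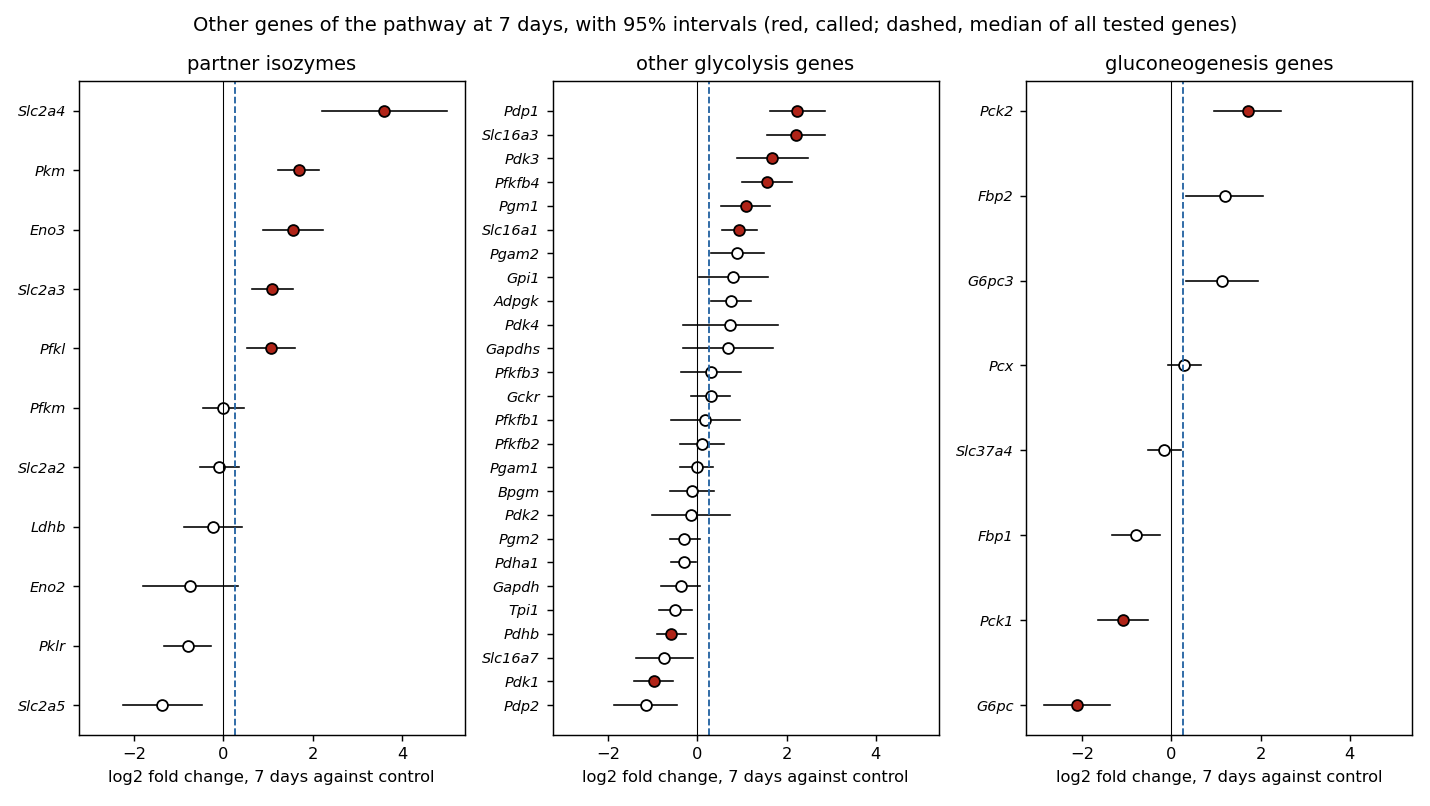
Log2 fold changes at 7 days against control of 45 of the 47 other tested genes, in 3 panels (11 partner isozymes, 26 other glycolysis genes, 8 gluconeogenesis genes), with 95% intervals; red points passed the threshold and the dashed line is the median of all tested genes. Slc2a4, Pkm, Pdp1, Slc16a3 and Pck2 lie to the right, and G6pc, Pck1 and Pdk1 to the left.

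The oxidative pentose phosphate pathway branches off after hexokinase and makes NADPH and ribose for growing cells. The list tested here held 10 genes: oxidative and non-oxidative enzymes of the pentose phosphate pathway, and Prps1 and Prps2. Of these 3 rose and 0 fell at 7 days, against 18.0% and 5.77% of all tested genes. G6pdx, the first oxidative enzyme, rose from 8.10 ± 1.38 to 29.9 eRPKM (log2 fold change 1.83, limma adjusted p = 2.67e-05). Pgd rose from 13.8 ± 3.15 to 52.0 (1.88, limma adjusted p = 0.000254). Prps1, which makes the ribose donor for nucleotides, rose by 0.98 on the log2 scale. The oxidative enzymes Pgls (means of 22.1 eRPKM in controls and 26.5 at 7 days) and H6pd (132 and 128) were not called. Nor were the non-oxidative enzymes Tkt (0.40), Taldo1 (0.18) and Rpia (0.07), and Rpe fell against 3 days only (-0.94, limma adjusted p = 0.00452).

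Hypoxia-inducible factors are the classical activators of many of the 10 genes, Slc2a1, Hk1, Hk2, Aldoa, Pgk1, Eno1 and Ldha among them. Of 20 tested hypoxia factors and targets, 5 rose and 1 fell at 7 days, against 18.0% and 5.77% of all tested genes, and their median log2 fold change was 0.45, against 0.26 for all tested genes. Ddit4 rose from 3.17 to 37.0 eRPKM (log2 fold change 3.37), P4ha2 from 3.05 to 15.3 (2.17) and Adm from 1.85 to 9.63 (2.25), with Egln1 and Hif3a as the other risers. Bnip3 fell from 174 to 72.8 (-1.25). Without the 2 shallowest controls the calls of Egln1 and Hif3a were lost, and that of Hif3a was made in 7 of 25 alternative fits, while the other 4 here and all 3 of the pentose phosphate genes were made. Hif1a (-0.26), Vegfa (0.00) and Ankrd37 (-0.20) were not called, and Car9 was called against 3 days only (1.26, limma adjusted p = 0.00822), in 9 of 25 alternative fits.

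For each of the 10 genes, the 3 tested genes with the most similar levels over the 11 livers were found by Pearson r of log2(eRPKM + 0.5). These livers share groups and depth, so r describes the pattern and was not tested. Hk3 was closest to Csf1r (r = 0.992), Slc11a1 (0.990) and Gngt2 (0.985), of which Csf1r is also on the macrophage marker list. Hk2 was closest to the leukocyte integrin genes Itgal (0.993) and Itgb2 (0.993) and to Limk1 (0.990). Hk1 was closest to Kif21b (0.987), Itpr3 (0.986) and Fhod1 (0.985), and Pfkp to Arl8a (0.979), Lsp1 (0.977) and Pde1b (0.976). Genes that share a step at 7 days have a high r by that alone. Other neighbours for the genes that were not called against control thus follow from the ranking. Ldha was closest to Ppia (0.976), P4hb (0.975) and Rps20 (0.975), and Pgk1 to Ak3 (0.942), Oaz1 (0.941) and Cyp2a12 (0.940). Aldoc was closest to Prodh (0.916), Col27a1 (0.904) and Coq10b (0.890). For Aldoa the nearest were Zc3hc1 (0.964), Dtx3 (0.962) and Exoc1 (0.952), for Eno1 Cox10 (0.976), Napa (0.976) and Zc3h18 (0.974), and for Slc2a1 Arpc4 (0.974), Ddx54 (0.973) and R3hcc1 (0.971).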

How the data were processed

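Total RNA of homogenized mouse livers was made into TruSeq libraries and sequenced in read pairs. Per the labels and the study's methods, the authors aligned the reads to mm9 with TopHat2 2.0.8 without strand, and the submitters' processing notes also name featureCounts 1.4.5-p1, SAMtools and DESeq2. The handling of duplicate reads is not given in the sources used here. Each liver has 1 column of eRPKM, an RPKM that the authors computed from exon reads and library size. In 3 more columns the authors deposited their own DESeq2 comparison of the induced with the control livers (mean signal, log2 fold change and adjusted p-value), and none of these entered a result.

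All 177553 eRPKM values above 0 were within 0.1 read of a whole number of reads (100%), and the recovered reads gave depth and 1 alternative fit by limma-voom. That fit called 4 of the 10 genes at 7 days against control. At 7 days the libraries held more reads than most controls, so precision for low genes is set by the controls (4 reads of Hk2 in the shallowest). The main test was limma 3.58.1 in R 4.3.3 (lmFit, then eBayes with trend) on log2(eRPKM + 0.5), a scale that understates changes of low genes, for genes reaching 0.5 eRPKM in 3 or more libraries. All 11 livers entered 1 fit of 3 groups, with Benjamini-Hochberg adjustment over all 14244 genes. The step was also run on simulated reads that followed depth, in which few genes changed. That run does not cover genes whose reads follow depth only in part. Groups came from the labels.

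The 10 genes, the gene lists and the rule for named genes (all 10, every partner isozyme or list gene that was called, and the 3 nearest genes of each) were chosen with earlier results of these data known. Lists of markers were for hepatocytes, bile duct, macrophages, neutrophils, red cells, lymphocytes, endothelium, stellate cells, skeletal muscle and cycling cells. Alternatives were 2 pseudocounts, 2 filters, 2 scalings, other sample sets, covariates, limma without trend, leaving out each liver, and a threshold of 0.05 with any fold change. Positions are from GENCODE M1 on mm9. Python 3.11.15, numpy 2.4.6, pandas 2.3.3 and matplotlib 3.10.9 were used. Some results are not reported here.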

Additional observations from a re-analysis of the deposited data

Results flagged for a closer look

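The change from 3 to 7 days was itself tested for each of the 10 genes, since each time was compared with the same controls. It passed the threshold, with a limma adjusted p under 0.01, for Hk1 (log2 fold change 1.58), Hk2 (2.58), Hk3 (2.19), Aldoa (0.69) and Pfkp (1.31), in each case with all 3 livers at 7 days above all 4 livers at 3 days. Depth, sex, macrophage markers and cycling markers changed over the same days, and their part was not tested. In 38 sets of 4 livers (the level of each gene and its share of its family, in controls and at 3 days), 0 had a liver so far from the others that it passed Dixon's limit, where chance gives about 1 in 20.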

How the results depend on the processing

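Of 780 fold changes (10 genes, 3 comparisons, 26 settings), 703 kept their direction and side of the threshold, 37 lost and 9 gained a call, and 31 changed direction, all in comparisons where the gene was not called. The cause of these changes was not tested. In female livers 2 of the 10 genes, Hk2 and Hk3, were called at 7 days against control and 2 against 3 days. Of the other pathway genes, 6 were called against 3 days in female livers. With log2 depth as a covariate 6 pathway genes were called against control and 7 against 3 days, and 6 against control without the 2 shallowest controls, a setting chosen after seeing the data. A looser threshold, 0.05 for the adjusted p and no minimum fold, called 25 and 20. Leaving out 1 liver gave 9 to 17 against control, with 9 without 7-day liver 2 or 3, and 6 to 17 against 3 days, with 7, 7 and 6 without 7-day livers 1, 2 and 3. With the label suffix MF as a covariate 6 of the 10 genes were called at 7 days, Slc2a1 and Aldoa added. Livers with the same replicate number deviated together only weakly (r -0.222 to 0.269), and so did livers with different numbers (-0.275 to 0.238). The livers also differed in sex, so these values cannot settle whether the numbers pair them. With the replicate block 3 and 4 of the 10 genes and 13 and 8 pathway genes were called at 7 days against control and against 3 days.

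At 7 days against control Ldha became 0.22 and Pgk1 0.30 after quantile normalization, 0.17 and 0.03 with depth as a covariate, and Ldha 0.05 without the 2 shallowest controls. Against 3 days both became 0.23 after quantile normalization, and Ldha 0.11 with depth. At 3 days against control Ldha was 0.01 in female livers, 0.06 with depth and 0.32 without the 2 shallowest controls, where Hk3 was 0.09. Aldoc was -0.01 after quantile normalization, and with the suffix MF Aldoa was 0.03, Eno1 0.28 and Slc2a1 0.20. Leaving out 1 liver, the 3-day change ran from -0.23 to 0.15 for Hk3, -0.11 to 0.22 for Aldoc, -0.36 to 0.13 for Eno1, -0.24 to 0.13 for Ldha, -0.07 to 0.14 for Pgk1 and -0.19 to 0.12 for Slc2a1. Shares of reads not divided by gene length gave Pfkp 12.7% in controls and 17.2% at 7 days. Depth limits the lowest genes most, Hk2 having 4 reads in control liver 4.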

Other observations

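Other marker lists are given here for 7 days against control, where 18.0% of all tested genes rose and 5.77% fell. Of 10 hepatocyte markers 4 fell and 0 rose, with Cyp2e1 (log2 fold change -2.0), Ass1 (-1.42), Ttr (-1.40) and Tat (-0.88) lower. Of 7 tested biliary markers only Krt7 rose (1.51). Of 6 neutrophil markers Retnlg (2.10) and S100a9 (1.53) rose, and their list summed to 18.5 to 30.2 eRPKM in controls and 39.1 to 53.6 at 7 days. Of 8 endothelial markers Cdh5 (1.5) and Lyve1 (1.93) rose, and of 9 lymphocyte markers Cd4 (1.30) rose. Of 9 stellate and fibroblast markers Reln (-1.22) and Rgs5 (-0.99) fell, and of 4 red cell markers Hbb-b1 (-1.11) and Hbb-bs (-0.96) fell. Of 9 skeletal muscle markers 2 were high enough to be tested and 0 were called. Their part in the changes of the 10 genes was not tested.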
